A study of Mus musculus with 18 samples.

Results

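The somatodendritic effect of Smn knockdown was measured against untreated wild-type cultures on 6 of the 18 arrays of the study, 3 with the knockdown and 3 wild-type. Both groups were primary mouse motoneuron cultures, made from E12.5 spinal cords by panning for the p75 neurotrophin receptor. They grew for 7 days in microfluidic chambers, whose fine channels let axons, but not cell bodies, reach a second chamber. The RNA described here came from the side that holds cell bodies and dendrites. All cultures had CNTF (5 ng/ml) in both compartments, and BDNF (20 ng/ml) was added to the axonal compartment alone. The knockdown cultures carried a lentivirus expressing a short hairpin RNA (shRNA) against Smn, whereas the wild-type cultures were left without any virus. The contrast therefore joins the effect of the hairpin with that of the virus, and 3 somatodendritic arrays of cultures with an empty lentiviral vector are given beside it. RNA was hybridised to Affymetrix mouse expression arrays after 2 rounds of linear amplification. The labels do not state whether a group's 3 arrays represent 3 independent cultures, so the p-values rest on the variation among arrays, which may be technical.

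SMN, the product of Smn1, assembles Sm proteins onto small nuclear RNAs to build the particles of the spliceosome, and loss of its human counterpart SMN1 causes spinal muscular atrophy, a disease of motoneurons. Type I interferons are antiviral cytokines: they act through the receptor chains Ifnar1 and Ifnar2 and the kinases Jak1 and Tyk2, and the signal ends at a short element in the promoters of interferon-stimulated genes. The products of these genes bind or destroy viral RNA, load MHC class I molecules with peptides and recruit immune cells.

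Values are the authors' log2 expression values, and a difference is the mean of the knockdown arrays minus the mean of the wild-type arrays with limma's standard error (SE). Medians, differences and changes not given as a fold are on the log2 scale. For each gene 1 probe set was used, the brightest over the 18 arrays. Per array, 9347 to 9753 of 18191 genes exceeded a background level of 6.55 to 6.70, set by probe sets of olfactory receptor, hair keratin-associated and similar genes that this tissue does not use. A group is called dim for a gene unless all 3 of its arrays exceeded that level, and the fold against a dim group is a lower bound computed at the level ("at least"). A log2 difference beside such a bound, or of a gene dim in both groups, is the fitted value and does not measure the size of the change, and list medians take in such genes. Pairs of arrays correlated across genes at 0.994 to 0.995 within the wild-type group, at 0.997 within the knockdown group, and at 0.971 to 0.980 between them. Smn1 itself was below background on all 6 arrays, at 5.12, 4.93 and 4.86 on the wild-type arrays and 4.99, 5.20 and 4.99 on the knockdown arrays (log2 difference 0.09, SE 0.11, adjusted p = 0.577), so its probe set could not show the knockdown. Of the defining motoneuron markers, Chat, Slc18a3, Slc5a7, Mnx1 and Isl1 were dim in both groups (means of 5.82, 3.78, 3.77, 4.38 and 6.33 in wild-type), whereas Ret, Gfra1, Nefl and Prph, and also Gad1, Slc6a5 and Slc17a6, markers of inhibitory and excitatory interneurons, lay above background. Gapdh's 3' control probe set exceeded its 5' one, a gap that widens with shorter RNA, by 3.99, 4.12 and 4.01 with the knockdown and 3.48, 3.11 and 3.61 in wild-type, without overlap, while that of Actb was 4.76, 4.84 and 4.67 against 4.54, 4.94 and 4.87, with overlap. The 3' probe set for 18S ribosomal RNA read 11.95, 11.82 and 11.53 with the knockdown and 10.17, 10.13 and 10.99 in wild-type. With the empty vector it read 11.03, 11.53 and 11.17. Knockdown and wild-type arrays were titled by different schemes, and the empty vector arrays shared the scheme of wild-type. Any separate handling that this may mark cannot be told apart from the knockdown, against either control. The part of these differences in the results was not tested. Beside the largest changes and the members of each list with the lowest p, genes were named for their known role with their values already seen.

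In total 6550 of 18191 genes (36.0%) were called at an adjusted p under 0.05, 2833 of them (15.6% of all genes) higher and 3717 (20.4%) lower with the knockdown. The shares of 15.6% and 20.4% stand beside each count of list members that rose or fell below. The median difference over all genes was -0.03. Changes of at least 2-fold were called for 929 genes (5.11%), 391 upward (2.15%) and 538 downward (2.96%), and 8854 genes (48.7%) had no overlap between the knockdown and the wild-type arrays. When the axonal arrays were added to the fit (18 arrays in all) 144 genes were called, each of them also called in the same direction here. Among the rises 62 reached 4-fold and 26 reached 8-fold by fitted difference, against 44 and 7 of the falls. Of the 26 rises of 8-fold or more, 15 belonged to the lists of interferon and MHC class I genes. Fold counts in this paragraph and below use fitted differences, also for genes dim in 1 group, whose size of change these do not measure. Nlrc5, for example, was counted at 8-fold though its bound is at least 1.59-fold.

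**Figure D1:**
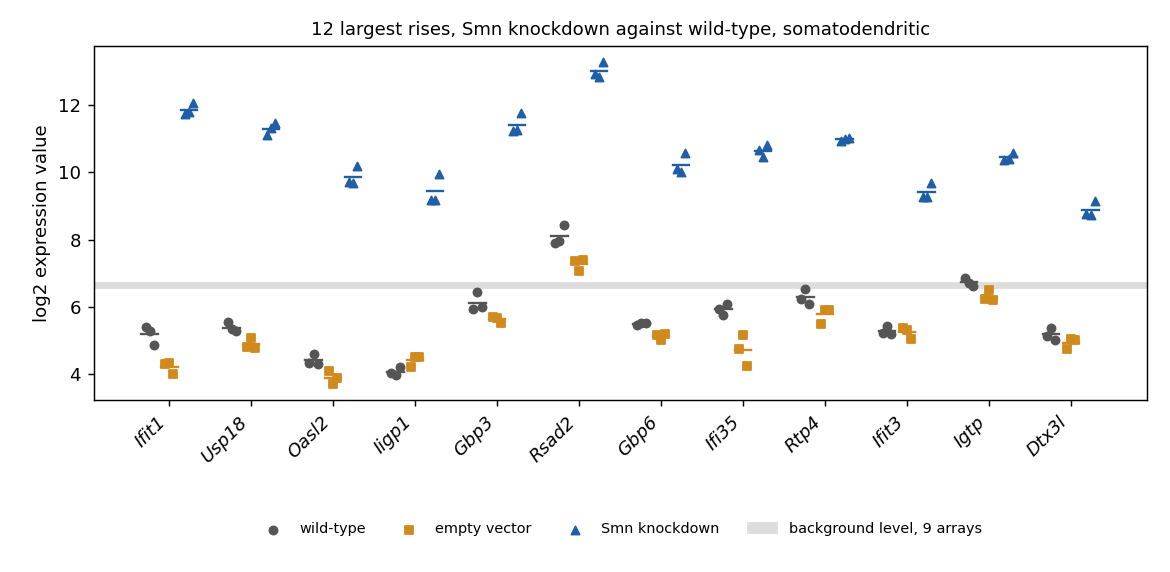
Log2 expression values (vertical axis) of the 12 genes with established names and the largest rises, per somatodendritic array; points are arrays, short lines are means of 3, and the grey band spans the background levels of the 9 arrays. All 3 knockdown arrays lie above all wild-type and empty vector arrays for each gene, and only Rsad2 and Igtp exceed background on all wild-type arrays.

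The 12 largest rises among genes with established names were all of genes known to be induced by interferon, and the smallest adjusted p among them was 5.56e-11 (Usp18). Ifit1, which binds viral RNA that lacks the host's cap methylation, read 5.42, 5.30 and 4.88 on the wild-type arrays and 11.74, 11.79 and 12.07 on the knockdown arrays. It rose at least 37.3-fold (log2 difference 6.66, SE 0.15). Rsad2, the antiviral enzyme viperin, read 7.90, 7.96 and 8.45 on the wild-type arrays and 12.94, 12.83 and 13.29 on the knockdown arrays and rose 30.2-fold. Rsad2 was above background on the wild-type arrays, while Ifit1 was dim there. Oasl2, a relative of the oligoadenylate synthetases, read 4.34, 4.62 and 4.31 on the wild-type arrays and 9.70, 9.68 and 10.18 on the knockdown arrays, a rise of at least 9.27-fold, and Ifit3, a partner of Ifit1, rose at least 6.85-fold. A list of antiviral effectors held inhibitors of viral entry and other proteins beside those that bind or degrade viral RNA. Of its 22 measured genes 18 rose and 1 fell, at a median of 1.95. The one fall was of Ifitm2, an inhibitor of viral entry that was dim in both groups (-0.40), and without any array but wild-type replicate 2 the list had 0 falls. The smallest of the rises was that of Adar (0.33), which edits double-stranded RNA.

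Of the 12 largest rises 8 had a promoter in the RefSeq table, and 5 of these, Ifit1, Gbp3, Rsad2, Ifit3 and Igtp, held the core of the interferon-stimulated response element, while Oasl2, Ifi35 and Dtx3l did not. The first 4 that held it are shown, chosen for the match. They hold 250 bases before and 50 after the annotated start (RefSeq, build GRCm38.p6), and capitals mark that core, GAAA, any 2 bases and GAAA again, on either strand, with overlapping matches joined. The windows lie at chr19:34640639-34640938, plus strand for Ifit1, at chr3:142559794-142560093, plus strand for Gbp3, at chr12:26456403-26456702, minus strand for Rsad2 and at chr19:34583279-34583578, plus strand for Ifit3.
Ifit1: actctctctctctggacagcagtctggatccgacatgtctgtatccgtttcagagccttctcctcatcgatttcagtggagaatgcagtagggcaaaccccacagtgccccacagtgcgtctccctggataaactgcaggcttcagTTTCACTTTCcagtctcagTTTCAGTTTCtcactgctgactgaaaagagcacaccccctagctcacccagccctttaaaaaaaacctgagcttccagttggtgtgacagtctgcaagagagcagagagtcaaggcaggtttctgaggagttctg
Gbp3: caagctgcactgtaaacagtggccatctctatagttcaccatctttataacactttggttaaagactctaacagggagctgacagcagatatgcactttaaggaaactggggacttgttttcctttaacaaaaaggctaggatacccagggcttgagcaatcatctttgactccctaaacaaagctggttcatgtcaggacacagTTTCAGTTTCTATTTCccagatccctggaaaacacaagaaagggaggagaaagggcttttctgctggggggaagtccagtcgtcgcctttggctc
Rsad2: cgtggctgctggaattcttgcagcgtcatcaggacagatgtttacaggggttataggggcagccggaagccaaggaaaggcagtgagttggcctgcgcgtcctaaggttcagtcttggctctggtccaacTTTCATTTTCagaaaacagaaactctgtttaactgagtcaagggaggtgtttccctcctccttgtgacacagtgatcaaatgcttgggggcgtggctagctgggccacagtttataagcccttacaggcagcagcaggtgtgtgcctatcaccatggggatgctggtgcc
Ifit3: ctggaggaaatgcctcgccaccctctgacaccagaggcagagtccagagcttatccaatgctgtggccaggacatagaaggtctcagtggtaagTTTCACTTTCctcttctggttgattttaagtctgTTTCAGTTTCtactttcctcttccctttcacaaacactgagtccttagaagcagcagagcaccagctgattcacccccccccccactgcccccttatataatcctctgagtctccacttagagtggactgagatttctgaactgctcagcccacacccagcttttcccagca
Ifit1, Gbp3 and Ifit3 each held 2 matches and Rsad2 held 1. The RefSeq table held 18105 promoters for 14450 of the genes tested, and a gene was counted if any of its promoters matched. The same letters stood in 22 of 47 genes with a promoter (46.8%) among those called at 4-fold or more higher. They stood in 24 of 274 (8.76%) called between 2-fold and 4-fold higher and in 20 of 409 (4.89%) called at 2-fold or more lower. Over all genes tested they stood in 524 of 14450 (3.63%). A match is a description of the letters and shows no binding.

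Every measured interferon-induced GTPase rose, 8 of 8. Only Gbp7 and Igtp were above background in wild-type, where they rose 6.39-fold and 13.2-fold, and for the other 6 the bounds ran from at least 2.01-fold (Gbp2) to at least 27.3-fold (Gbp3). These proteins attack the vacuoles and membranes that shelter intracellular microbes. Gbp3, a guanylate-binding protein, read 5.93, 6.43 and 5.99 on the wild-type arrays and 11.23, 11.25 and 11.76 on the knockdown arrays and rose at least 27.3-fold. Iigp1, a GTPase of the immunity-related family, read 4.03, 3.98 and 4.23 on the wild-type arrays and 9.17, 9.19 and 9.96 on the knockdown arrays, which is at least 6.95-fold. Gbp6 rose at least 12-fold and Irgm1 at least 8.19-fold. The list's mean level was 5.67, 5.69 and 5.58 on the wild-type, 5.41, 5.48 and 5.28 on the empty vector and 9.41, 9.52 and 9.92 on the knockdown arrays, so that the third knockdown array was the highest and the groups stood far apart.

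Along the signalling route the genes did not move as one. Of 31 measured genes 12 rose and 4 fell, at a median of 0.16, beside 15.6% higher and 20.4% lower over all genes. Among these 31 genes 12 were dim in both groups. Usp18, which takes ISG15 off proteins and dampens the receptor, read 5.57, 5.33 and 5.27 on the wild-type arrays and 11.11, 11.33 and 11.46 on the knockdown arrays, a rise of at least 25.3-fold (log2 difference 5.91, SE 0.12). Ifi35 rose at least 16.1-fold, and the sensors of double-stranded RNA Ifih1 and Ddx58 rose at least 9.47-fold and 5.2-fold. The endosomal sensor Tlr3 rose by 1.68, and the transcription factors Stat2 and Irf9, both dim in wild-type, rose at least 1.03-fold and at least 3.05-fold. The receptor chains Ifnar1 (log2 difference 0.05, SE 0.10, adjusted p = 0.715) and Ifnar2 (0.21, adjusted p = 0.175) were not called. The kinase Jak1, shared by both interferon receptors, fell from a mean of 9.41 (SD 0.14) to 8.56 (SD 0.03) (log2 difference -0.85, SE 0.12, adjusted p = 0.000161), and the falls also took in Jak2 (-0.31), the receptor chain of interferon gamma Ifngr2 (-0.64) and the adaptor Sting1 (-0.79, dim in both groups). Ifnb1, the gene of interferon beta, was dim in both groups, at 5.23, 4.99 and 4.91 on the wild-type arrays and 4.95, 5.09 and 4.84 on the knockdown arrays, and Irf7 was dim as well.

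Of 13 genes of MHC class I presentation and the immunoproteasome 11 rose and 0 fell, at a median of 1.80. B2m, the light chain of MHC class I, read 10.64, 10.74 and 10.78 on the wild-type arrays and 12.96, 12.84 and 13.08 on the knockdown arrays, and the empty vector arrays lay below wild-type, at a mean of 9.83. It rose 4.72-fold (log2 difference 2.24, SE 0.15). The heavy chains H2-K1 and H2-D1 rose 4.83-fold and 3.48-fold; they are near-identical paralogs, and their probe sets may share signal. The immunoproteasome subunits Psmb9 and Psmb8, which cut peptides for loading, rose at least 6.83-fold and at least 5.7-fold, the loading chaperone Tapbp 4.4-fold, and Nlrc5, the activator of class I transcription, at least 1.59-fold. The other probe set of Tapbp was not called. Among 22 chemokines and cytokines 11 rose and 3 fell, at a median of 0.26. Ccl5, which attracts T cells and macrophages, read 5.52, 5.56 and 5.60 on the wild-type arrays and 8.96, 8.79 and 8.75 on the knockdown arrays, a rise of at least 4.56-fold, and Cxcl10 rose at least 1.41-fold. The macrophage chemokine Ccl4 rose at least 1.99-fold, and Tgfb2, a growth factor, fell by 0.87 on the log2 scale. The groups of Ccl5 and Cxcl10 did not overlap, and both genes were dim in wild-type and in empty vector arrays alike.

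The largest rises outside these lists were also of genes known to respond to interferon. Rtp4, a chaperone of receptors that restrains interferon signalling, rose at least 20.3-fold. Dtx3l, a ubiquitin ligase that works with Parp9, rose at least 4.74-fold, and Rnf213, a large ubiquitin ligase, 11.4-fold. Parp14 and Parp12, which modify proteins with ADP-ribose, rose at least 5.04-fold and at least 7.18-fold. Trim21, an antibody receptor of the cytosol, rose 7.73-fold, and the antiviral Samd9l at least 9.09-fold. Phf11d, Trim30d and Ifi27 rose at least 9.86-fold, at least 1.62-fold and 7.72-fold. The rule that named these genes required arrays without overlap. For Rtp4, Rnf213, Parp14 and Trim30d the other probe set of the gene was not called.

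Microglia, the resident phagocytes of nervous tissue, share many markers with macrophages. Of 15 markers 6 rose and 1 fell, at a median of 0.16 (3 falls without wild-type replicate 3). Over all genes 15.6% rose and 20.4% fell with the knockdown against wild-type. The list's mean level was 7.45, 7.48 and 7.38 on the wild-type and 7.75, 7.63 and 7.84 on the knockdown arrays, against 6.00, 5.82 and 5.68 with the empty vector, where 10 of 15 were called lower than wild-type (1.52% of all genes were, and 0.484% were higher). Cd68, a lysosomal membrane protein, read 7.00, 6.67 and 7.27 on the wild-type arrays and 8.50, 8.24 and 8.64 on the knockdown arrays and rose at least 2.78-fold. Tyrobp, a signalling adaptor, rose 1.45-fold and Laptm5 by 0.72. Ptprc (CD45; log2 difference 0.16, SE 0.15, adjusted p = 0.466) and the growth factor receptor Csf1r (log2 difference -0.44, SE 0.23, adjusted p = 0.168) were not called. Aif1 rose by 1.43 while dim in both groups, and Trem2, a lipid receptor of microglia, fell at least 1.19-fold. The other probe set of Trem2 was not called. P2ry12, Itgam, Spi1 and Cx3cr1 were dim in both groups. In such bulk RNA, fewer cells of a type and less RNA per cell cannot be told apart.

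Genes of complement and lysosomal proteases rose almost throughout: 13 of 14, at a median of 0.81. Ctsd, cathepsin D, read 9.44, 8.82 and 9.76 on the wild-type arrays and 10.95, 10.90 and 10.99 on the knockdown arrays and rose 3.04-fold. Gpnmb, a glycoprotein of phagocytes with loaded lysosomes, rose by 1.36, C1qb, a chain of the first complement component, by 0.86, and Ctss by 0.73. Lgmn, the protease legumain, rose at least 1.78-fold. Ctsl rose 2.18-fold, but where probe sets that may read several transcripts were left out (the stricter choice of probe sets) another one stood for it and gave -0.12. Serping1 was dim in both groups (-0.14). The list's mean level was 8.75, 8.67 and 8.79 in wild-type, 7.69, 7.68 and 7.48 with the empty vector and 9.57, 9.37 and 9.68 with the knockdown, a wider gap to the empty vector than to wild-type.

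**Figure D2:**
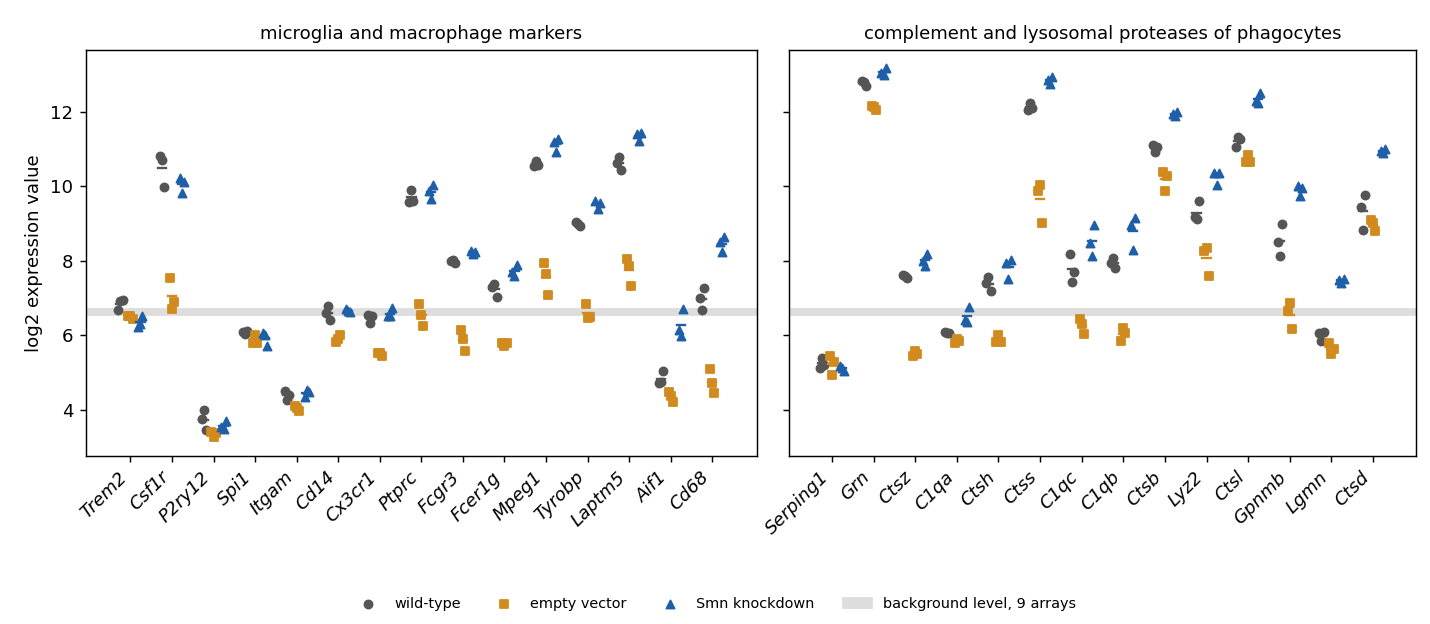
Log2 expression values (vertical axis) per array of the 15 microglia and macrophage markers (left) and the 14 complement and lysosomal genes (right), ordered from the lowest to the highest knockdown minus wild-type difference; points are arrays, short lines means of 3, the grey band the background levels. Empty vector arrays lie below wild-type for most genes, and the knockdown arrays lie at or above wild-type for most.

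Several further genes of myeloid cells, chosen after their values were seen, went in both directions. C3ar1, the receptor of complement fragment C3a, read 7.33, 6.88 and 7.40 on the wild-type arrays and 9.41, 9.43 and 9.67 on the knockdown arrays, a rise of 4.93-fold, and the Fc receptor Fcgr4 rose at least 1.09-fold. Mrc1, the mannose receptor of tissue macrophages, read 7.70, 7.90 and 7.04 on the wild-type arrays and 5.67, 5.67 and 5.99 on the knockdown arrays and fell at least 1.93-fold (log2 difference -1.77, SE 0.18, adjusted p = 1.40e-05). The chemokine Ccl9 fell at least 3.08-fold and its relative Ccl6, dim in both groups by the rule on all 3 arrays, fell by 1.86 on the log2 scale. For Mrc1 and Ccl9 the empty vector arrays were lower still, at means of 4.65 and 5.10. Igf1, a growth factor, fell 4.37-fold.

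**Figure D3:**
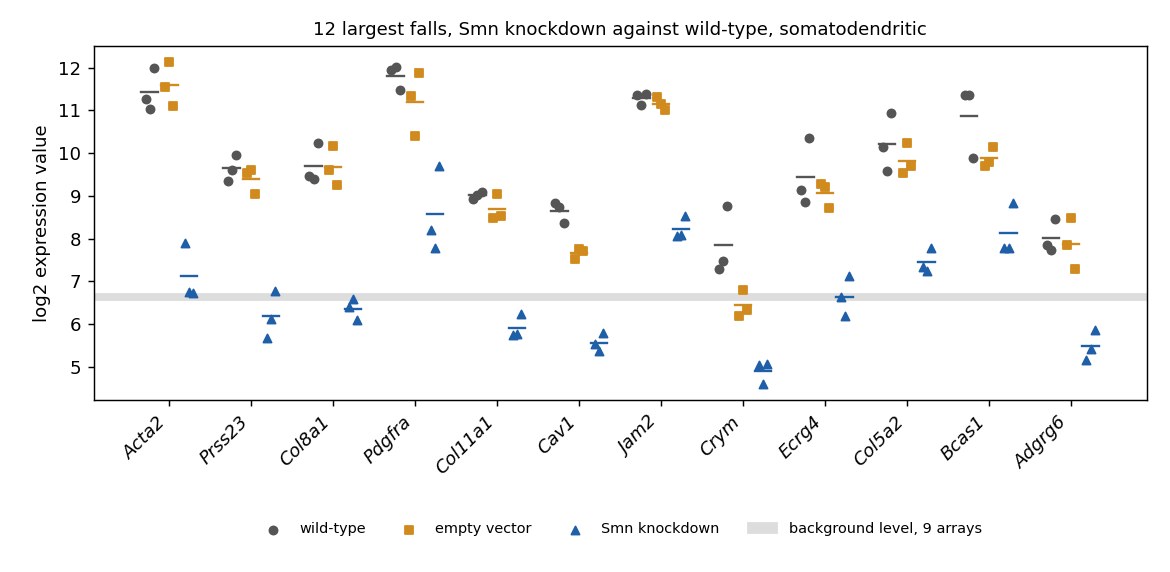
Log2 expression values (vertical axis) of the 12 genes with established names and the largest falls, per somatodendritic array; points are arrays, short lines means of 3, and the grey band spans the background levels. Knockdown arrays lie below all wild-type arrays for each gene, and for Prss23, Col8a1, Col11a1, Cav1, Crym, Ecrg4 and Adgrg6 at least 1 knockdown array is at or below background.

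The 12 largest falls, by the same rule on names, included 3 collagens. Acta2, smooth muscle actin, read 11.26, 11.04 and 11.98 on the wild-type arrays and 7.88, 6.74 and 6.73 on the knockdown arrays and fell 19.8-fold (log2 difference -4.31, SE 0.33, adjusted p = 1.93e-06), but the stricter choice of probe sets gave -0.07 without a call. Col8a1, a short-chain collagen, read 9.47, 9.39 and 10.24 on the wild-type arrays and 6.39, 6.58 and 6.09 on the knockdown arrays and fell at least 8.59-fold. The fibrillar collagens Col11a1 and Col5a2 fell at least 5.36-fold and 6.84-fold. Cav1, the coat protein of caveolae, read 8.84, 8.73 and 8.35 on the wild-type arrays and 5.52, 5.36 and 5.80 on the knockdown arrays, a fall of at least 4.14-fold; its empty vector mean of 7.66 lay between. Pdgfra, a receptor tyrosine kinase carried by oligodendrocyte precursors, read 11.94, 12.02 and 11.48 on the wild-type arrays and 8.21, 7.78 and 9.71 on the knockdown arrays, and knockdown replicate 3 was the highest of its group. It fell 9.52-fold (log2 difference -3.25, SE 0.44). Jam2, a junctional adhesion molecule, fell 8.4-fold with the same direction called in all 4 of its other probe sets. Bcas1, a protein of the oligodendrocyte lineage, fell 6.7-fold, and Crym, which binds thyroid hormone, at least 2.38-fold. Adgrg6, an adhesion receptor needed for myelination by Schwann cells, fell at least 2.68-fold, and the secreted Ecrg4 at least 6.41-fold. Prss23, a serine protease, fell at least 7.99-fold, but the stricter choice of probe sets gave -0.22 without a call.

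Of 15 smooth muscle, pericyte and CCN genes 1 rose and 10 fell, at a median of -0.83; 8 were dim in both groups, and among genes above background in at least one group 5 fell. The 1 rise was lost without any array but wild-type replicate 3. Ccn1 and Ccn2, secreted matrix proteins, fell at least 3.51-fold and at least 2.71-fold, and the calponin Cnn2 fell at least 2.26-fold. Of 18 fibroblast and meningeal genes 1 rose and 7 fell, at a median of -0.26, beside 15.6% higher and 20.4% lower over all genes. Of the 18, 9 were dim in both groups. The falls numbered 4 without wild-type replicate 1 or without knockdown replicate 1, and 0 rose without wild-type replicate 3 or knockdown replicate 2. Besides Col5a2 the falls included Fn1, fibronectin (log2 difference -1.17, SE 0.24), and Col5a1 (log2 difference -0.57, SE 0.11). The other probe set of Fn1 was not called. Lum was dim in both groups.

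Cell division genes fell together. Of 33 genes of DNA replication and mitosis 28 fell and 0 rose, 18 of them by at least 2-fold, at a median of -1.13 against -0.03 over all genes. The list's mean level was 8.31, 8.10 and 8.48 on the wild-type, 8.26, 8.35 and 8.02 on the empty vector and 7.07, 7.07 and 7.34 on the knockdown arrays, so the empty vector arrays lay near wild-type and the knockdown arrays below both. Bub1, a kinase of the spindle checkpoint, read 7.78, 8.01 and 7.90 on the wild-type arrays and 5.34, 5.32 and 5.84 on the knockdown arrays and fell at least 2.47-fold. The other probe set of Bub1 was not called. Anln, an actin-binding protein of the cleavage furrow, fell at least 3.44-fold, and Ccna2, cyclin A2, 3.16-fold. Mki67, the marker of proliferation, read 9.28, 8.80 and 9.43 on the wild-type arrays and 7.11, 7.06 and 7.88 on the knockdown arrays, which is a fall of 3.53-fold. Top2a, which untangles DNA, fell 4.35-fold, though the stricter choice of probe sets gave -0.30 without a call.

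The promoters of Bub1, Anln and Top2a, the 3 of the list's 4 members with the lowest p that had one in the table, are given because the list fell together and such promoters are known for CCAAT boxes and for the cell cycle genes homology region, TTTGAA. Capitals mark either set of letters on either strand, at chr2:127831810-127832109, minus strand for Bub1, at chr9:22389157-22389456, minus strand for Anln and at chr11:99024140-99024439, minus strand for Top2a.
Bub1: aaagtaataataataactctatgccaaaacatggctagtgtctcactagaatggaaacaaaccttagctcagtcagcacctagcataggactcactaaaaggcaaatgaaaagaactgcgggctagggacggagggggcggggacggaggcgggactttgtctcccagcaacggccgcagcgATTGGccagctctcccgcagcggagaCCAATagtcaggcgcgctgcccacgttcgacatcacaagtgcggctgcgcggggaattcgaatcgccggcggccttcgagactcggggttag
Anln: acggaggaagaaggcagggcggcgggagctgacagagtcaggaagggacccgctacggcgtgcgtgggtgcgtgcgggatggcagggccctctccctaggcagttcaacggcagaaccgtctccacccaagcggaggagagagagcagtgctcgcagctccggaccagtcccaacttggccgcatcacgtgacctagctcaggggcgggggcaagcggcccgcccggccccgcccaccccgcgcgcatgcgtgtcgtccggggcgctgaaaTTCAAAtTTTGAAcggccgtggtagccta
Top2a: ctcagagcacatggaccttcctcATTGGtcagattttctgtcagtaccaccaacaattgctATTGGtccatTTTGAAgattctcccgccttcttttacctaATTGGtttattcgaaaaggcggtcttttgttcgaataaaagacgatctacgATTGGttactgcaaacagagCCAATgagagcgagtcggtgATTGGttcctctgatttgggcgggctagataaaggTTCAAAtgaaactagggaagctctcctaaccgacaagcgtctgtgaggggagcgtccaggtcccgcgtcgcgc
Matches to CCAAT numbered 2 in Bub1, 6 in Top2a and 0 in Anln, and those to TTTGAA 0 in Bub1 and 2 each in Anln and Top2a. Of 28 genes of the list with a promoter, 24 (85.7%) held CCAAT in any of their promoters, against 6069 of 14450 over all genes tested. For TTTGAA it was 17 (60.7%), against 2262 of 14450. Both motifs were searched after the fall of the list was known.

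Markers of glia and of neural progenitors fell. Of 16 astrocyte and radial glia markers 1 rose and 9 fell, at a median of -0.47. Gja1, a gap junction protein, read 11.77, 11.91 and 12.18 on the wild-type arrays and 10.34, 10.45 and 11.24 on the knockdown arrays and fell 2.43-fold; the water channel Aqp4 fell 2.42-fold and Gfap, the filament of astrocytes, 2.13-fold. No other probe set of Aqp4 was called. Tnc, a matrix protein of radial glia, fell at least 1.97-fold. Fabp7, a lipid carrier of radial glia, rose by 0.43, and the list had 0 rises without wild-type replicate 1 or 2 or knockdown replicate 2 or 3. Of 11 oligodendrocyte lineage markers 7 fell and 0 rose, at a median of -0.95. Olig1, a transcription factor of the lineage, read 11.91, 11.12 and 11.86 on the wild-type arrays and 9.95, 9.44 and 10.58 on the knockdown arrays, a fall of 3.12-fold, and Olig2 fell at least 3.63-fold. Cnp, an enzyme of myelin, fell 2.29-fold. Of 11 neural progenitor genes 7 fell and 0 rose, at a median of -0.53. Prom1, a membrane protein of stem cells, fell 2.77-fold, the receptor Notch1 2.2-fold and its ligand Dll1 1.78-fold, and the transcription factor Sox2 fell by 0.80.

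For markers of other cell types the shares over all genes, 20.4% lower and 15.6% higher, stand beside small lists. Of 7 Schwann cell and neural crest markers 3 fell (1 without knockdown replicate 2): the transcription factors Egr2 (at least 1.58-fold, dim with the knockdown) and Tfap2a (-0.59) and the myelin protein Pmp22 (-0.38). No other probe set of Tfap2a was called. Of 12 endothelial markers 3 fell, 10 were dim in both groups, Pecam1 and Cdh5 among them, and the count was 1 without any array but wild-type replicate 2. All 6 erythroid markers were dim in both groups, and 1 rose and 2 fell; 0 or 1 fell without any single array, and the rise was lost without any array but wild-type replicate 3. Of 7 sensory neuron markers 3 fell, or 1 without knockdown replicate 1. The largest of these falls was that of the neurotrophin receptor Ntrk3 (-0.53), but the mean of its probe sets gave 0.20.

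Among 19 motoneuron and cholinergic genes 1 rose and 6 fell, at a median of -0.06, with 9 dim in both groups. The 1 rise was lost without any array but wild-type replicate 1. For this and the other lists of this paragraph, the shares over all genes were 15.6% higher and 20.4% lower. Ret, the receptor of the GDNF family, read 9.62, 9.75 and 9.48 on the wild-type arrays and 8.64, 8.60 and 8.64 on the knockdown arrays and fell 1.99-fold (log2 difference -0.99, SE 0.12, adjusted p = 4.77e-05). Its co-receptor Gfra1 fell 1.33-fold. Foxp1, the transcription factor of limb motoneurons, fell 1.99-fold, and Pou3f1, a transcription factor, 2.43-fold. The neurofilament Nefl fell by 0.32, and Nefm (log2 difference 0.03, SE 0.12, adjusted p = 0.881) and Prph (-0.23, adjusted p = 0.139) were not called. Of 11 markers of other spinal neurons 1 rose and 2 fell (2 rises without wild-type replicate 1, and 4 with the mean of all probe sets). Slc6a5, the glycine transporter of inhibitory terminals, read 11.28, 11.34 and 11.01 on the wild-type arrays and 10.13, 10.21 and 10.12 on the knockdown arrays and fell 2.09-fold, whereas Gad1 (log2 difference 0.13, SE 0.08, adjusted p = 0.266) and Slc17a6 (adjusted p = 0.985) were not called. Lbx1, a transcription factor of dorsal interneurons, rose 1.43-fold. Among 24 Hox genes, which set position along the body axis, 6 rose and 2 fell, or 1 fell without wild-type replicate 3 or any knockdown array. Hoxb6 read 7.50, 7.32 and 7.59 on the wild-type arrays and 9.26, 9.26 and 8.88 on the knockdown arrays, a rise of 3.16-fold, and Hoxb5 rose 4.44-fold, while Hoxc8 fell 2.11-fold.

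Genes of axon growth and guidance changed in both directions: of 55, 13 rose and 20 fell, at a median of -0.08, beside 15.6% higher and 20.4% lower among all genes. Gap43, a growth cone protein, read 8.96, 8.52 and 8.83 on the wild-type arrays and 10.56, 10.21 and 10.17 on the knockdown arrays and rose 2.91-fold (log2 difference 1.54, SE 0.17), with empty vector arrays at a mean of 9.31. The microtubule proteins Mapt and Stmn2 rose by 0.73 and 0.39. Dcc, the netrin receptor, read 9.10, 9.28 and 9.28 on the wild-type arrays and 7.75, 7.73 and 7.82 on the knockdown arrays and fell 2.74-fold. Enah, an actin regulator of growth cones, fell 2.22-fold, the microtubule protein Dcx 1.94-fold and the secreted cue Sema3c 2.23-fold. With the mean of all probe sets of a gene in place of the brightest, 13 of the list fell. Against wild-type, the empty vector means of Dcc, Enah and Sema3c differed by -0.18, -0.20 and -0.39.

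Presynaptic genes also split. Of 42, 14 rose and 11 fell, at a median of 0.06; the rises numbered 9 without knockdown replicate 2, and the falls 5 with the mean of all probe sets. Erc2, a scaffold of the active zone, read 12.17, 12.23 and 11.99 on the wild-type arrays and 10.33, 10.13 and 10.18 on the knockdown arrays, without overlap and with little spread in either group. It fell 3.79-fold (log2 difference -1.92, SE 0.10, adjusted p = 6.38e-08). Pclo, another active zone scaffold, fell by 1.22 and Dnm3, a dynamin of endocytosis, fell 2.84-fold. Rab3c, a vesicle GTPase, fell 2.33-fold, but the mean of its probe sets gave -0.13 without a call. Vamp2, the vesicle SNARE, read 7.03, 6.89 and 7.32 on the wild-type arrays and 8.59, 9.09 and 8.64 on the knockdown arrays and rose 3.23-fold, and the vesicle protein Sv2a rose 3.28-fold. For these rises the empty vector arrays lay between, at means of 7.52 and 9.56. Of 31 postsynaptic genes 10 rose and 6 fell, at a median of 0.11. Gphn, the scaffold of inhibitory synapses, read 11.19, 11.13 and 11.28 on the wild-type arrays and 9.19, 9.16 and 9.32 on the knockdown arrays and fell 3.95-fold (log2 difference -1.98, SE 0.11). The glutamate receptor subunit Grin3a fell 2.58-fold and the scaffold Homer1 2.16-fold, while Grin2b rose 1.91-fold. Of 22 voltage-gated channel subunits 4 rose and 6 fell (2 and 2 with the mean of probe sets). Over all genes 15.6% rose and 20.4% fell. The potassium channel Kcna2 fell 1.58-fold, and the sodium channel Scn8a rose 1.48-fold, but the mean of its probe sets gave 0.09 without a call. Of 34 genes of the cytoskeleton and motors 11 rose and 4 fell, or 7 rises with the stricter choice of probe sets and 2 falls with the mean of probe sets. Dync1h1, the dynein heavy chain, read 9.56, 9.12 and 9.73 on the wild-type arrays and 10.91, 11.11 and 10.77 on the knockdown arrays and rose 2.75-fold; the filament Ina rose 1.99-fold and the kinesin Kif5b 1.87-fold, and Ank3, which organises the axon initial segment, fell 2.05-fold.

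For the machinery in which SMN works, 20 measured genes gave 5 rises and 3 falls, at a median of 0.06, and 2 rises with the stricter choice of probe sets. Snrpd3, one of the Sm proteins, read 8.23, 8.05 and 8.79 on the wild-type arrays and 10.21, 10.05 and 9.98 on the knockdown arrays and rose 3.31-fold. Prmt5 and Wdr77, which methylate Sm proteins before assembly, rose 1.58-fold and 1.42-fold, though the stricter choice of probe sets gave 0.16 for Wdr77 without a call. Phax, the export adaptor of small nuclear RNA, rose 1.79-fold. Gemin2, the closest partner of SMN, fell by 0.30 (adjusted p = 0.0427), and Gemin5 (log2 difference 0.15, SE 0.09, adjusted p = 0.249) was not called. Of 40 spliceosome proteins and splicing regulators 12 rose and 9 fell. Their median difference was 0.09. Rbfox1, a neuronal splicing regulator, read 11.56, 11.67 and 11.57 on the wild-type arrays and 10.58, 10.43 and 10.48 on the knockdown arrays and fell 2.15-fold, while its relative Rbfox2 rose at least 1.84-fold and Prpf8, a core of the spliceosome, 2.42-fold. Of 22 axonal RNA-binding proteins 3 rose and 5 fell, close to the 15.6% higher and 20.4% lower over all genes. The falls numbered 2 without knockdown replicate 2 and 3 without wild-type replicate 1 or 2 or knockdown replicate 1 or 3. Stau2, a transport factor of RNA granules, read 11.96, 11.85 and 11.78 on the wild-type arrays and 10.61, 10.54 and 10.58 on the knockdown arrays and fell 2.44-fold, Elavl1 fell 1.97-fold, and Ybx1 rose 1.43-fold.

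**Figure D4:**
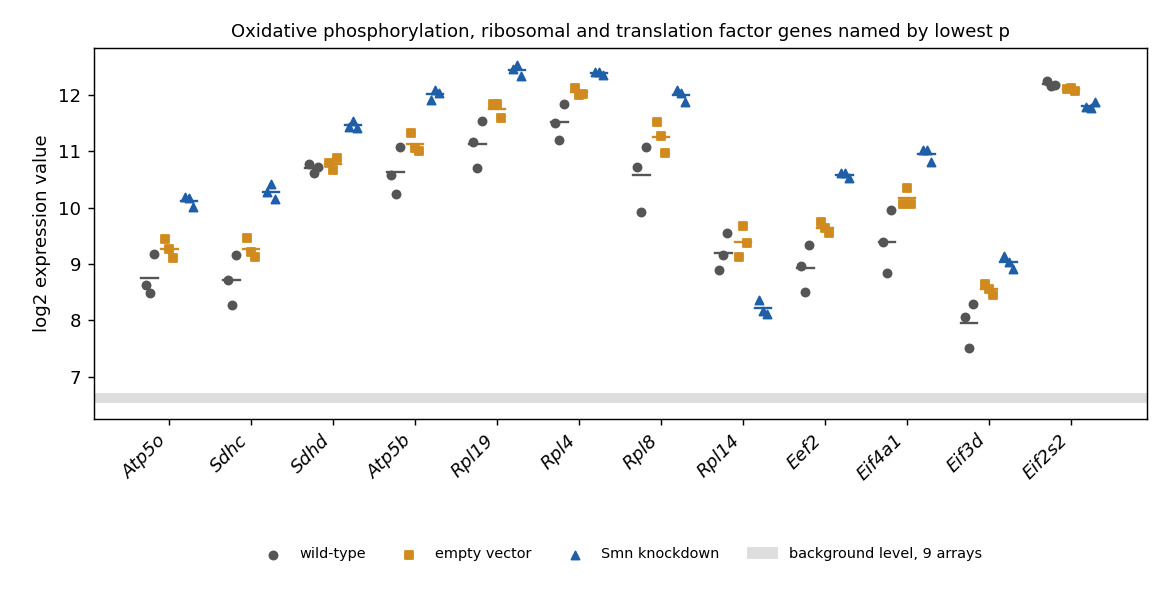
Log2 expression values (vertical axis) per array of the 4 genes with the lowest p in each of the lists of oxidative phosphorylation, cytosolic ribosomal proteins and translation factors; points are arrays, short lines means of 3, the grey band the background levels. For all genes shown but Rpl14 the empty vector mean lies between the wild-type and the knockdown mean.

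Of 60 genes of oxidative phosphorylation, the mitochondrial route to ATP, 31 rose and 3 fell, at a median of 0.30; with the stricter choice of probe sets 1 fell. Atp5b, a catalytic subunit of ATP synthase, read 10.58, 10.24 and 11.07 on the wild-type arrays and 11.91, 12.09 and 12.03 on the knockdown arrays and rose 2.6-fold (log2 difference 1.38, SE 0.17); its empty vector mean was 11.12. Sdhc and Sdhd, membrane anchors of complex II, rose 2.95-fold and 1.69-fold, and Atp5o 2.57-fold. The list's mean level was 11.33, 11.09 and 11.32 in wild-type, 11.48, 11.32 and 11.34 with the empty vector and 11.69, 11.62 and 11.55 with the knockdown. Of 29 cytosolic ribosomal protein genes 12 rose and 4 fell, at a median of 0.20, but 4 rose with the stricter choice of probe sets. Rpl8 read 10.72, 9.92 and 11.08 on the wild-type arrays and 12.08, 12.03 and 11.88 on the knockdown arrays, a rise of 2.68-fold, Rpl19 rose 2.48-fold, and Rpl14 fell 1.98-fold; these genes have processed pseudogenes whose transcripts the probes may share. Of 30 translation factors 6 rose and 4 fell (2 falls without knockdown replicate 2), beside 15.6% higher and 20.4% lower over all genes. Eef2, the elongation factor that moves the ribosome, read 8.97, 8.50 and 9.33 on the wild-type arrays and 10.61, 10.61 and 10.51 on the knockdown arrays and rose 3.13-fold, but its other probe set was called lower, and the helicase Eif4a1 rose 2.94-fold. In the wild-type group the order of the arrays was shared: replicate 2 was lowest and replicate 3 highest for Atp5b, Rpl8, Eef2 and Eif4a1, and replicate 3 also had the highest 18S signal of its group. The part of that signal in these rises was not tested.

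Of 15 glycolytic genes 6 rose and 2 fell, or 3 rises and 1 fall with the stricter choice of probe sets and 4 falls without wild-type replicate 3. Pkm, pyruvate kinase, read 8.97, 8.68 and 9.04 on the wild-type arrays and 10.21, 10.43 and 10.58 on the knockdown arrays and rose 2.85-fold, and the glucose transporter of neurons Slc2a3 fell 1.83-fold, where the stricter choice of probe sets gave -0.28 without a call. Of 19 genes of cholesterol synthesis 10 rose and 2 fell, at a median of 0.33, and 6 rose without wild-type replicate 1 or without knockdown replicate 2. Fdps, which makes farnesyl diphosphate, rose 2.13-fold and Sc5d, a late enzyme, 1.88-fold; Msmo1 fell 1.9-fold, where the stricter choice gave -0.05 without a call. In the responses to unfolded proteins and to lack of amino acids 9 rose and 3 fell of 26 genes, at a median of 0.22 (1 fall with the mean of probe sets). Ddit3 (CHOP), a transcription factor of that response, read 7.63, 7.08 and 7.08 on the wild-type arrays and 8.74, 8.28 and 8.37 on the knockdown arrays and rose 2.3-fold, Herpud1, which helps clear misfolded proteins, rose 2.05-fold, and the chaperone Hsp90b1 2.02-fold. Among 22 p53 targets 5 rose and 3 fell, beside 15.6% higher and 20.4% lower over all genes. The cell cycle inhibitor Cdkn1a rose 1.79-fold, the exonuclease Aen 1.94-fold, and Sesn1 fell 2.01-fold. Of 17 immediate early genes 1 rose and 5 fell, or 8 falls in a fit to the 6 arrays alone and 2 rises without wild-type replicate 3, led by Ier3, which fell 2.25-fold. Of 9 nuclear-retained long noncoding RNAs 5 rose and 0 fell, at a median of 0.62. Malat1 read 9.34, 9.78 and 10.31 on the wild-type arrays and 11.77, 11.69 and 11.96 on the knockdown arrays and rose 3.99-fold, with 3 of its 6 probe sets beside this one called in the same and 1 in the opposite direction.

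**Figure D5:**
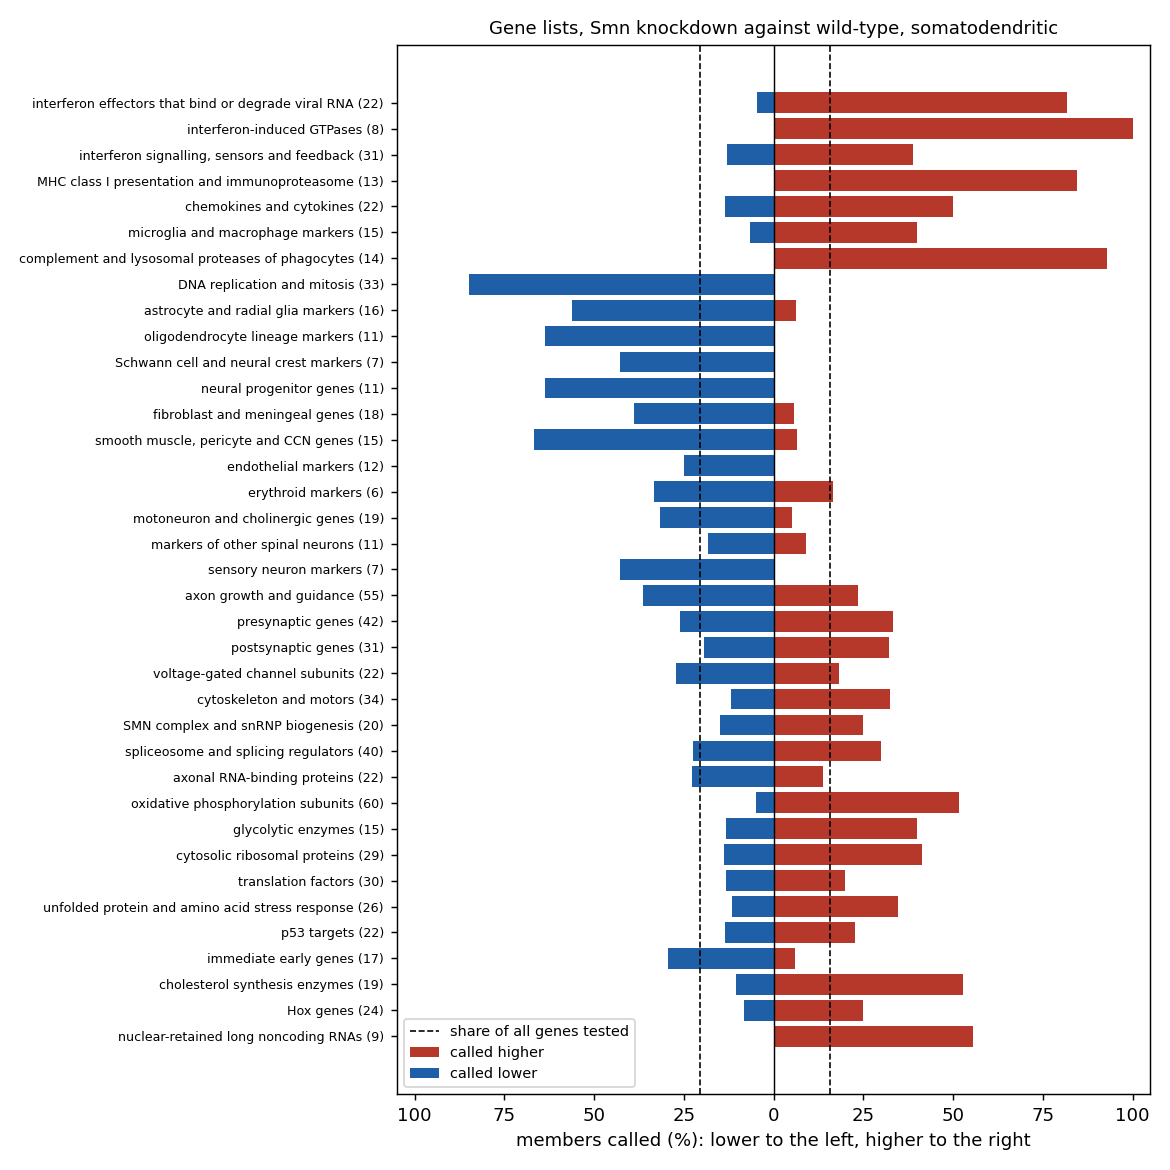
Share of each list's measured members (number in brackets) called higher (right) or lower (left) with the knockdown against wild-type at an adjusted p under 0.05, in percent; dashed lines mark the shares over all 18191 genes, 15.6% higher and 20.4% lower. The bars of the interferon, MHC class I and complement lists run far past the right line. Others do so too, and those of chemokines, oxidative phosphorylation, cholesterol synthesis and nuclear-retained noncoding RNAs run further than that of interferon signalling. Bars of mitosis, smooth muscle, oligodendrocyte, progenitor and astrocyte genes run far past the left line.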

How the data were processed

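The authors deposited normalized log2 expression values for the 45101 probe sets of each array. The program and settings behind these values were not given in the sources used here. Of these probe sets 34958 were annotated with 1 gene, 932 with several and 9211 with none, and 11 had missing values. The brightest probe set per gene left 18191 genes, 18030 of them with a current name in the RefSeq table. The main fit in limma 3.58.1 (R 4.3.3) took 9 somatodendritic arrays with 1 mean per group, and p-values were adjusted by the Benjamini-Hochberg method over all genes, with a threshold of 0.05. Background on an array was the 95th percentile of 138 probe sets. The number of arrays limits the precision: the median standard error was 0.10, and the smallest called difference was 0.21. On simulated data of this comparison (18191 genes), 96 of 100 genes shifted by log2 1 and 100 of 100 shifted by log2 2 were called, with 13 calls among the genes left unshifted in the same simulated data. The simulated noise was independent between genes and arrays, without shared differences of array, handling or RNA quality. The 13 calls therefore do not measure errors among the genes called on the real arrays. Named were the 12 largest rises, the 12 largest falls, the 10 largest rises outside the immune lists (groups without overlap, 1 of them above background, clone-like names skipped), Smn1, and up to 4 members of each list by lowest p; further genes were named with their values seen. Gene lists and members were chosen with earlier results of these data known. Alternatives changed the arrays in the fit, the probe set per gene, the filter, the centring, the variance model and the control, or left out 1 array.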

Additional observations from a re-analysis of the deposited data

Results flagged for a closer look

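Among the genes picked by the naming rule, 9 had a somatodendritic difference of one sign and axonal arrays that differed, without overlap, with the other sign; the difference was not tested. For 5 of them the brighter axonal group was above background on all 3 arrays. Axonal knockdown minus axonal wild-type was 2.30 for Trem2, 1.81 for Runx1 and 2.04 for Ier2, where the somatodendritic differences were -0.50, -0.23 and -0.39. It was -1.82 for Ebp and -0.50 for Fdps, both of cholesterol synthesis, where the somatodendritic differences were 0.73 and 1.09. The other 4, Kdr (0.71), Alas2 (0.80), Evx1 (0.66) and Scn10a (1.25), did not meet that condition on background in the axons. Among 10092 probe sets annotated with no gene or with several, which entered no comparison above, 84 were at least 2-fold higher and above background on all 3 knockdown arrays, and 66 at least 2-fold lower and above background on all 3 wild-type arrays; the largest rise was 4.66.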

How the results depend on the processing

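No paired analysis was possible because the titles of the knockdown arrays carry the numbers 4 to 6 and those of the wild-type arrays 1 to 3, so the groups share none. Leaving out 1 array in turn gave 5200 to 6304 called genes, 2283 to 2719 higher and 2917 to 3585 lower, and 834 to 1112 at 2-fold or more. A fit to all 18 arrays called 144 genes, 98 higher and 46 lower, 130 of them at 2-fold or more; it adds the spread of the axonal arrays. With the mean of all probe sets of a gene 6183 genes were called, 534 at 2-fold or more. The other alternatives against wild-type called 6533 (6 arrays), 6457 (centred on bright genes, which moved the median of all genes from -0.03 to 0.01), 6615 (trend and robust), 5400 of 9687 (filter) and 5657 of 16589 (without probe sets that may read several transcripts). The last gave -0.12 for Ctsl and 0.025 for Slc4a1, of opposite sign to the main values. The mean of probe sets turned Slc4a4 to 0.062, Ntrk3 to 0.20 and Eif2s2 to 0.19. With the empty vector as control 5088 genes were called, and Smn1 gave -0.14, Pmp22 0.36 and Hbb-bh1 -0.025. The cause of these turns was not tested. Of 6550 called genes 3994 had another probe set, and for 505 of these one was called in the opposite direction. For 1600 at least 1 other probe set was called in the same direction. Genes dim in both groups have no reliable size of change.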
